A study of Mus musculus with 6 samples.

Results

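The genes Meis1, Meis2, Meis3, Pbx2, Pbx3, Pbx4, Pknox1, Pknox2 and Tgif1 encode homeodomain proteins of the TALE class, and the regions of open chromatin around them were followed in mouse nephron progenitor cells at 2 stages. A region was assigned to a gene when its midpoint lay in the gene body or within 50 kb of it, which gave 62 of the 43523 distinct regions of the deposited table. The stages were E14.5, an embryonic stage, and P0, the day of birth, with 3 libraries each. Every library came from 50000 cells of CD1 mice, taken from the pooled kidneys of 1 litter (up to 24 kidneys) and enriched on beads with antibodies against the integrin Itga8. The labels name no altered gene and no agent for either group, so that stage was the labelled difference between them. Accessibility was measured by ATAC-seq: the transposase Tn5 inserts into DNA that is not wrapped tightly, and more counts in a region mean more insertions there.

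TALE proteins carry a homeodomain with extra amino acids in the loop between the first helices. Pbx proteins bind DNA together with Hox proteins, and Meis and Pknox proteins bind Pbx, help to keep it in the nucleus and join it on DNA. Tgif1 recognises a core sequence like that of Meis and Pknox and is known as a repressor that limits TGF-beta signalling through Smad proteins. In the developing kidney Hox proteins and their TALE partners act in the progenitor and stromal compartments, and Meis1 is known as a gene of the stroma. Other genes of the Pbx and Tgif families were not analysed here.

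Gene positions are those of RefSeq in GRCm38.p6, which is the mm10 build that the submitters' processing notes name. Meis1 lies on chromosome 11 from 18880428 to 19019651, Meis2 on chromosome 2 from 115861264 to 116067537 and Meis3 on chromosome 7 from 16174012 to 16186510. Pbx2 lies on chromosome 17 from 34592259 to 34597400, Pbx3 on chromosome 2 from 34171457 to 34372045 and Pbx4 on chromosome 8 from 69832476 to 69872292. Pknox1 lies on chromosome 17 from 31564722 to 31607693, Pknox2 on chromosome 9 from 36890979 to 37147342 and Tgif1 on chromosome 17 from 70844205 to 70853532. The windows held 5, 10 and 6 regions for Meis1, Meis2 and Meis3, 5, 2 and 7 for Pbx2, Pbx3 and Pbx4, 4 and 16 for Pknox1 and Pknox2, and 7 for Tgif1. All 62 regions passed the filter on low counts. At Tgif1, 2 of the listed regions overlapped by 3098 bp and are nearly the same stretch.

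The annotated starts were compared by position with the open regions. RefSeq's promoter table listed 10 starts for 6 of the 9 genes, and 7 of these starts lay inside a region. For Pbx3, Pknox1 and Pknox2, which it did not list, the start was taken as an end of the gene's span that lay in a region listed as a promoter. The bases upstream of the gene's own span are shown for the outermost start of Tgif1 and for Pbx4, which lay inside a region, and for Pbx2, which did not. All are from RefSeq, GRCm38.p6, 5′ to 3′ on the strand of the gene. Capitals mark the reverse complement of CCAAT, the box bound by NF-Y, which was the only one of the motifs searched that these stretches held.
Tgif1, chr17:70853533-70853782, minus strand: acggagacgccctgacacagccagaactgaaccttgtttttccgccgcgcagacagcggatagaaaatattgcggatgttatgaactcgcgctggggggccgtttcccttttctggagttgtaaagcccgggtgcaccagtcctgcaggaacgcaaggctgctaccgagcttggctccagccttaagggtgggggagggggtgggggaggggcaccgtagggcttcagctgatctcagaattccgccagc
Pbx4, chr8:69832374-69832475, plus strand: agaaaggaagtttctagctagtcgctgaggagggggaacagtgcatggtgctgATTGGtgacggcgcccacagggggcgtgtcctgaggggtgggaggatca
Pbx2, chr17:34592009-34592258, plus strand: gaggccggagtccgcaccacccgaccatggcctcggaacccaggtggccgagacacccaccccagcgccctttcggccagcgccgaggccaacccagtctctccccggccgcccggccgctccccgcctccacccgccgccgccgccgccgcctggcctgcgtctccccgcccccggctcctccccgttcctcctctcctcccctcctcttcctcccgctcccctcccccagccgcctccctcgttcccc

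Over the 250 bases before each start, the Pbx2 sequence was the richest in G and C of the 10, at 77.6% with 27 CG dinucleotides, against medians of 52.4% and 6 over the 32851 promoters of the RefSeq table. No region of the table overlapped the Pbx2 start, and the nearest one lay 4.27 kb away. The Meis2 start in RefSeq's promoter table lay 0.927 kb from the nearest region, while the upstream end of the gene's span lay inside that region. The third start outside a region was the innermost start of Tgif1, at 38.0% G and C and 1.87 kb from a region.

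Motifs were searched on both strands of the 250 bases. TGACAG, the core of Meis, Pknox and Tgif sites, was found in 0 of the 10 sequences and in 15.9% of all promoters. TGATTGAT, a Pbx site, was found in 0 of the 10 and in 0.670% of all. The composite site of Pbx with Meis or Pknox, in which TGACAG directly follows the start of a Pbx site, was found in 0 of the 10 and in 0.198% of all. TGATTNAT, a site of Pbx with Hox that includes TGATTGAT, was found in 1 of the 10, the Tgif1 start at 70849790, from position -134 to -127, and in 2.82% of all promoters. CCAAT, which was added after the sequences were seen, was found in 4 of the 10 and in 33.8% of all, at Meis1, at Meis2, at a Tgif1 start and on the minus strand at -197 to -193 and -30 to -26 of Pbx4. A match is a description of the letters only.

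The 6 libraries held between 6492996 and 12292629 counts in regions, the lowest and the highest being P0 replicates 2 and 3. In a region of the 9 genes a library had between 24 and 874 counts. Values are CPM, the count as a rate of the library's total, with totals adjusted between libraries by TMM. The labelled cell type was checked by regions within 10 kb of marker genes. All 7 progenitor markers had a region, with summed levels of 342 to 347 CPM at E14.5 and 281 to 358 CPM at P0. Of their 17 regions 2 passed the edgeR test, both lower at P0, where 4.73% of all regions passed and 2.94% did so lower at P0. The median log2 fold change of the 17, P0 over E14.5, was 0.14. Stromal markers had regions at 6 of 7 genes, all but Pdgfra, with sums of 159 to 168 CPM at E14.5 and 141 to 161 CPM at P0. Endothelial markers had regions at 3 of 5 genes, with sums of 105 to 134 and 119 to 129 CPM. Of their 6 regions 1 passed, higher at P0, where 1.79% of all regions did so. No region of the other marker lists passed. Ureteric markers had them at 5 of 5 genes, with 168 to 198 and 154 to 177 CPM, and immune markers at 3 of 4 genes, with 79.5 to 93.6 and 68.4 to 87.1 CPM. An open region near a marker does not show that the marker was expressed, and the part of such cells in the values of the 9 genes was not tested. In pooled cells of this kind, more cells of a type and more open chromatin per cell cannot be told apart.

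No region of the Meis, Pbx, Pknox and Tgif1 genes passed the test between the stages. With edgeR's quasi-likelihood test, 0 of the 62 regions had a Benjamini-Hochberg adjusted p under 0.05, where 4.73% of all regions did, 1.79% higher and 2.94% lower at P0. DESeq2 and limma-voom also called 0 of the 62, where over all regions they called 2778 of 43522 and 1908 of 43523. At an unadjusted p under 0.05 there were 6 of 62 regions in edgeR, 5 of them higher and 1 lower at P0, where 18.7% of all regions had such a p, 9.85% higher and 8.85% lower. At an adjusted p under 0.1 there was 1 of 62, against 8.02% of all regions, and under 0.01 there were 0, against 1.24%. The lowest adjusted p was 0.0772, at a region in Meis2. The median log2 fold change, P0 over E14.5, was 0.12 over the 62 regions and 0.01 over all regions tested, and it ran from -0.57 to 1.00 among the 62. It was above 0 in 39 of the 62 regions and in 51.1% of all. The median of the 62 dropped to 0.04 when P0 replicate 3 was left out and to 0.05 when E14.5 replicate 2 was, with 34 of 62 above 0 in both fits, while the median of all regions stayed between -0.01 and 0.01 over the 6 fits that left out a library. For 52 of the 62 regions the 95% interval of the log2 fold change, from its standard error and the degrees of freedom of the fit, lay between -1 and 1, so that a 2-fold change either way was outside it. In 9 of the 62 regions the libraries of the stages did not overlap, 8 with P0 above and 1 with P0 below, while 24.2% of all regions had stages that did not overlap, 11.8% with P0 above and 12.4% with P0 below.

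**Figure D1:**
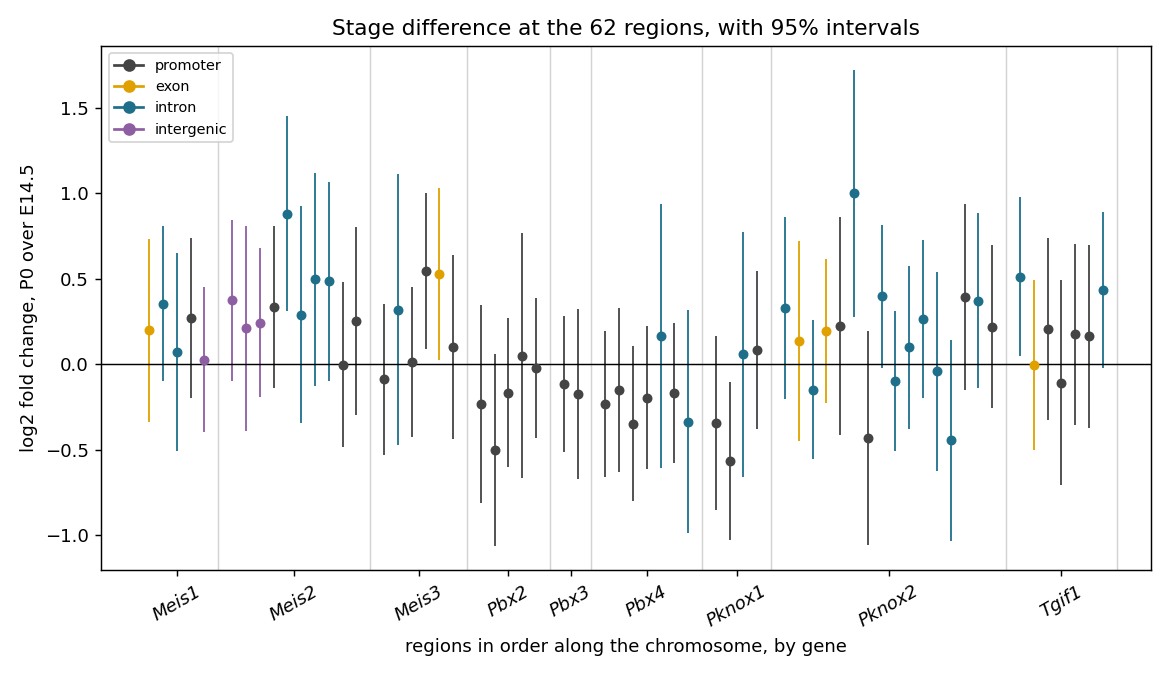
Log2 fold change of P0 over E14.5 (vertical axis) at each of the 62 regions, in order along the chromosome within each gene, coloured by the class of the region in the deposited table. Bars are 95% intervals of single regions without adjustment; the highest point is a region in an intron of Pknox2 at 1.00, and the lowest is the start region of Pknox1 at -0.57.

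The regions at the starts of the genes are described first, beginning with Meis1, which is also known as a cofactor of Hox proteins in blood cells. Its start region, from 19018401 to 19021552 on chromosome 11, is listed as its promoter. It had 34.3, 38.9 and 44.3 CPM in E14.5 replicates 1, 2 and 3 and 46.2, 35.0 and 59.8 CPM in P0 replicates 1, 2 and 3. The stages overlapped, since P0 replicate 2 lay within the E14.5 range. The log2 fold change was 0.27 (SE 0.22; edgeR adjusted p = 0.565), with a 95% interval from -0.20 to 0.74, and it was 0.04 without P0 replicate 3 and 0.44 without P0 replicate 2.

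Meis2, a paralogue of Meis1, had its start region on chromosome 2 from 116065546 to 116068074. The table lists it as promoter and exon of G630016G05Rik, a long non-coding RNA whose RefSeq span overlaps the end of Meis2, so that its counts cannot be divided between both genes. It had 39.7, 32.5 and 36.6 CPM at E14.5 and 36.3, 24.8 and 46.7 CPM at P0. The P0 libraries lay on both sides of the E14.5 libraries, and the log2 fold change was 0.00 (-0.003 before rounding; SE 0.23, edgeR adjusted p = 0.997). Meis3, the third paralogue, had a weaker start region on chromosome 7 from 16174215 to 16175996. Its values were 15.5, 17.8 and 18.0 CPM at E14.5 and 14.58, 16.8 and 20.4 CPM at P0, which overlapped throughout (log2 fold change 0.02, SE 0.21).

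Among the Pbx genes, whose products are the partners that Meis and Pknox proteins bind, the start region of Pbx3 on chromosome 2 from 34370482 to 34373818 had 40.8, 35.6 and 43.4 CPM at E14.5. At P0 it had 35.8, 34.5 and 40.2 CPM, overlapping the earlier stage, with a log2 fold change of -0.11 (SE 0.19). The start region of Pbx4, on chromosome 8 from 69831896 to 69833517, had 36.3, 32.8 and 41.9 CPM at E14.5 and 29.8, 29.1 and 37.7 CPM at P0. These stages overlapped too, and the log2 fold change was -0.20 (SE 0.20), with a 95% interval from -0.61 to 0.22. Pbx2 had no region at its own start. The nearest promoter region, on chromosome 17 from 34585814 to 34587987, lies within Notch4 and is listed as the promoter of Gpsm3. It had 23.0, 22.9 and 31.1 CPM at E14.5 and 26.8, 11.5 and 26.4 CPM at P0, where replicate 2 stood below the other 5 libraries. Its log2 fold change was -0.23 (SE 0.27; edgeR adjusted p = 0.709).

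Pknox1, which encodes a Pbx partner also called Prep1, was the only gene of the 9 whose start region separated the stages, where 16.7% of all promoter regions did so, 12.1% with P0 below. The region, on chromosome 17 from 31563679 to 31566030, overlapped the start of Pknox1 and is listed as the promoter of AC166172.1, so its counts cannot be divided between both. It had 61.1, 37.7 and 40.1 CPM in E14.5 replicates 1, 2 and 3 and 32.8, 28.3 and 32.4 CPM in P0 replicates 1, 2 and 3. All P0 libraries lay below all E14.5 libraries, and E14.5 replicate 1 stood far above the other 2 of its stage. The log2 fold change was -0.57 (SE 0.22; 95% interval -1.03 to -0.11), with an unadjusted p of 0.0194 and an edgeR adjusted p of 0.163, which did not pass. Without E14.5 replicate 1 it was -0.32, with an edgeR adjusted p of 0.568.

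The related gene Pknox2 had its start region on chromosome 9 from 37145141 to 37147738. It had 35.1, 43.3 and 47.3 CPM at E14.5 and 55.3, 34.4 and 56.4 CPM at P0, so that P0 replicate 2 lay below all E14.5 libraries and the other 2 lay above them. Its log2 fold change was 0.22 (SE 0.22; edgeR adjusted p = 0.657). For Tgif1, the repressor, the start region on chromosome 17 from 70850626 to 70853774 had 39.6, 37.7 and 55.1 CPM at E14.5 and 44.0, 35.9 and 69.0 CPM at P0. Its listed promoter is that of ENSMUSG00000093514, for which the table gives no symbol, and its log2 fold change was 0.18 (SE 0.25). Without P0 replicate 3 it was -0.16, so that 1 library set its direction. A further promoter region inside Tgif1, from 70848651 to 70850194, which holds an internal start, had a log2 fold change of -0.11 (SE 0.28).

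**Figure D2:**
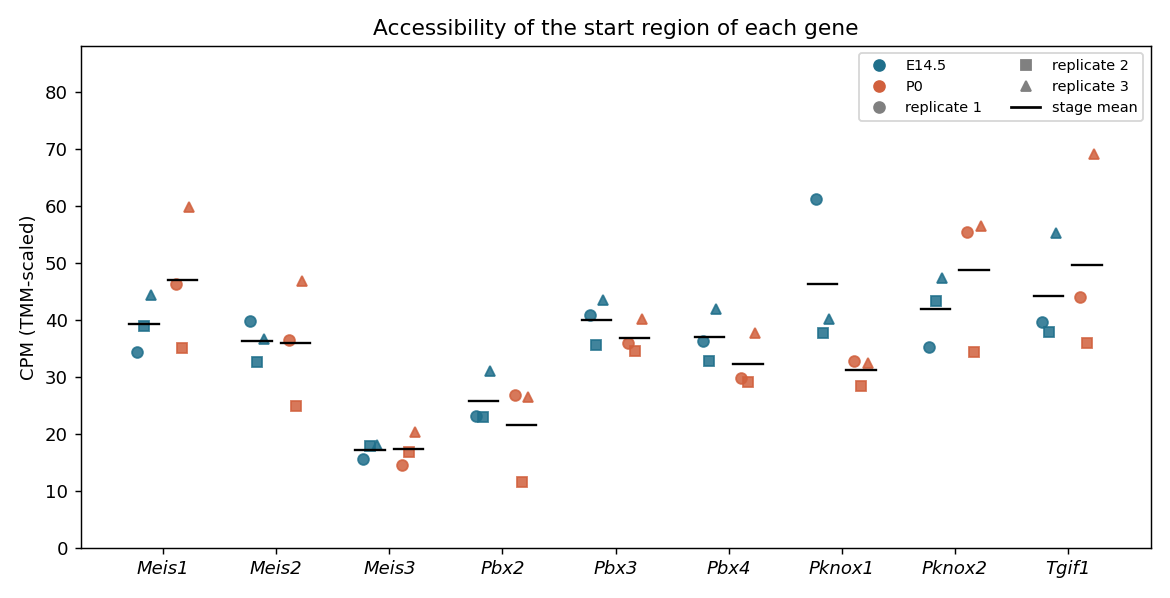
CPM (vertical axis) of the start region of each gene in the 3 E14.5 and the 3 P0 libraries, with marker shape for the replicate number and a black line for the mean of the stage; for Pbx2 the nearest promoter region is plotted. Only at Pknox1 do the stages separate, with P0 between 28.3 and 32.8 CPM and E14.5 between 37.7 and 61.1 CPM.

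The P0 libraries often stood in the same order at these regions, though not at all of them. P0 replicate 2, the library with the fewest counts, was the lowest of the 3 in 8 of the 9 start regions, and P0 replicate 3, with the most counts, was the highest in 7 of 9. Over all promoter regions of the table, replicate 2 was lowest in 60.7% and replicate 3 highest in 62.4%. Over all 43523 regions these shares were 37.0% and 36.2%. Single libraries also set the sign at other start regions. The log2 fold change at Meis2 was -0.25 without P0 replicate 3 and 0.20 without P0 replicate 2, and that at Meis3 was -0.15 without P0 replicate 3 and -0.05 without E14.5 replicate 1. At the region nearest to Pbx2 it was 0.05 without P0 replicate 2. Pknox2 kept a value above 0 in each of the 6 fits, from 0.09 without P0 replicate 3 to 0.41 without P0 replicate 2. Pbx3 kept values from -0.20 to -0.05 and Pbx4 from -0.34 to -0.10, nearest to 0 without E14.5 replicate 3 in both.

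Levels of the start regions were compared between genes per kb of region, over the 6 libraries. The Pbx4 region had the highest level, 21.3 ± 3.07 CPM per kb (SD, n = 6), followed by Pknox2 with 17.4 ± 3.67 and Pknox1 with 16.5 ± 4.99 CPM per kb. Tgif1 had 14.9 ± 4.07, Meis2 had 14.3 ± 2.89 and Meis1 had 13.7 ± 3.01 CPM per kb. The lowest were Pbx3 with 11.5 ± 1.07, the region nearest to Pbx2 with 10.9 ± 3.06 and Meis3 with 9.64 ± 1.14 CPM per kb. Each neighbour in this order overlapped the next in its range over the libraries. The extremes did not overlap, with Pbx4 at 17.9 to 25.8 and Meis3 at 8.18 to 11.4 CPM per kb. By total CPM, the Tgif1, Pknox2 and Meis1 start regions stood at the percentiles 93.1, 92.5 and 91.7 of all regions, and that of Meis3 at 60.0.

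Of the regions within the genes and away from their promoters, the one nearest to the threshold was in an intron of Meis2, on chromosome 2 from 115894693 to 115896503. It had 5.69, 9.98 and 8.41 CPM in the E14.5 replicates 1, 2 and 3 and 17.1, 10.9 and 16.4 CPM in the P0 replicates 1, 2 and 3. All P0 libraries lay above all E14.5 libraries, although P0 replicate 2 exceeded E14.5 replicate 2 by less than 1 CPM. The log2 fold change was 0.88 (SE 0.27; 95% interval 0.31 to 1.45), the unadjusted p 0.00493 and the edgeR adjusted p 0.0772. Without E14.5 replicate 2 the edgeR adjusted p was 0.0487, with a log2 fold change of 1.07, and without P0 replicate 2 it was 0.0439, with 1.05, so that at the threshold of 0.05 the region passed in these fits and in no other of the alternatives. Over all alternatives the adjusted p ran from 0.0439 to 0.334. The authors' deposited table classed this region as opening, with a log2 fold change of 1.03 and an adjusted p of 0.0707, and it classed the other 61 regions as stable.

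The remaining 9 regions of the Meis2 window had log2 fold changes that did not pass, and 8 of these were above 0. A second intron region, from 116008838 to 116009771, overlapped a VISTA element, a sequence catalogued in a collection of enhancers tested in mouse embryos. It had 5.69, 4.99 and 6.07 CPM at E14.5 and 7.50, 8.32 and 7.66 CPM at P0. The stages did not overlap there, and the log2 fold change was 0.49 (SE 0.27; edgeR adjusted p = 0.369). Another VISTA element was listed at the region from 115868598 to 115870557, an inner promoter of Meis2, where the log2 fold change was 0.33 (SE 0.22) and the stages overlapped.

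Pknox2 had more regions than any other of the 9 genes, and 11 of its 16 regions lay in the gene outside promoters. The largest fold change among the 62 regions was in its intron, on chromosome 9 from 36985690 to 36986199, a short region of 510 bp. It had 2.85, 2.19 and 3.39 CPM at E14.5 and 5.10, 5.30 and 6.31 CPM at P0, from 24 to 80 counts per library. The stages did not overlap, with a log2 fold change of 1.00 (SE 0.34; 95% interval 0.28 to 1.72), an unadjusted p of 0.00999 and an edgeR adjusted p of 0.113. A stronger intron region, from 37028583 to 37031500, had 22.4, 33.0 and 26.5 CPM at E14.5 and 35.2, 35.7 and 37.3 CPM at P0. Its stages did not overlap either, and its log2 fold change was 0.40 (SE 0.20; edgeR adjusted p = 0.296). The third VISTA element among the 62 regions was in a Pknox2 intron from 37052676 to 37055801, where the log2 fold change was -0.10 (SE 0.19). Of the 16 regions of this window, 11 had a log2 fold change above 0 and 5 below 0.

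**Figure D3:**
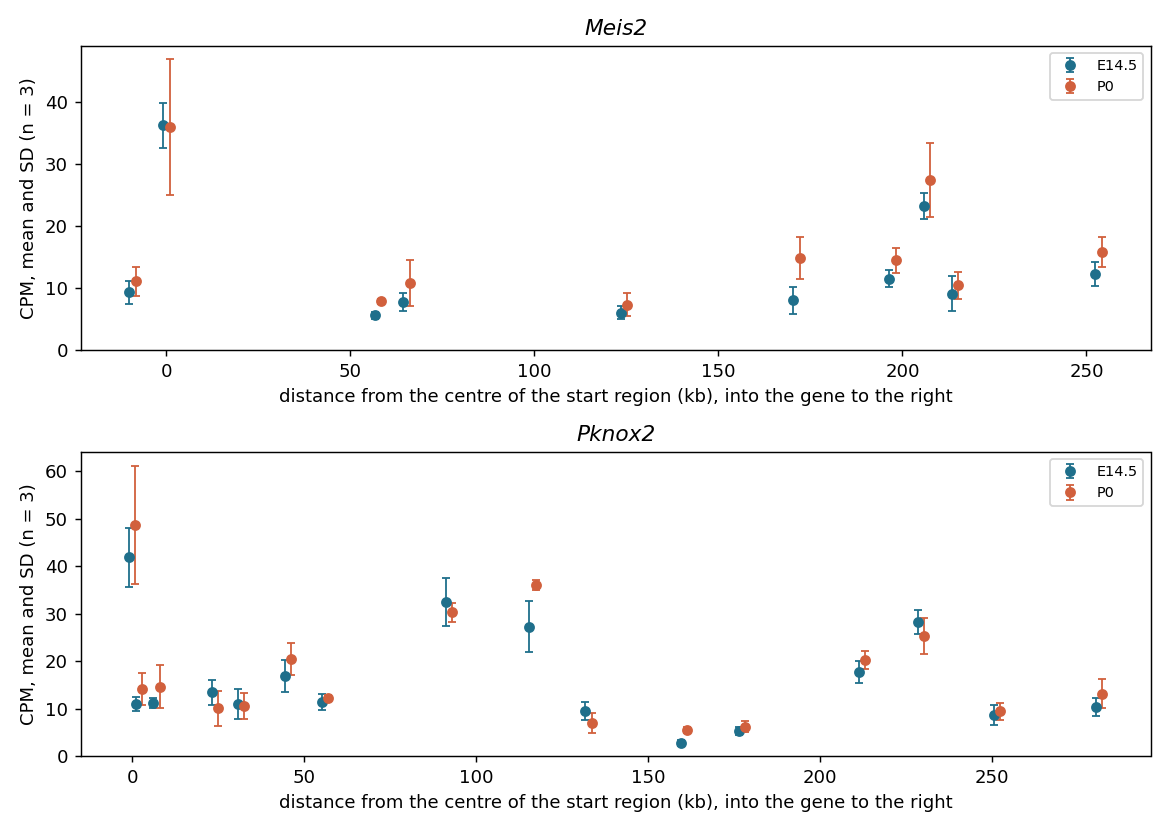
Mean CPM with SD (n = 3) of each region of the Meis2 and Pknox2 windows at E14.5 and P0 (vertical axis), by distance from the centre of the start region in kb (horizontal axis, into the gene to the right). The start regions stand highest in both genes, at 36.3 and 36.0 CPM for Meis2 and at 41.9 and 48.7 CPM for Pknox2, and the Meis2 intron region is at 8.03 CPM at E14.5 and 14.8 CPM at P0.

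At Meis1 an intron region on chromosome 11, from 18956536 to 18958829, had 12.6, 11.6 and 12.3 CPM at E14.5 and 16.8, 12.9 and 16.8 CPM at P0. The stages did not overlap, and the log2 fold change was 0.35 (SE 0.21; edgeR adjusted p = 0.408). The other regions of the Meis1 window overlapped between the stages, with log2 fold changes from 0.03 to 0.27. At Pbx3, a long gene, the start region and the Mapkap1 promoter from 34406284 to 34407366, with a log2 fold change of -0.17 (SE 0.23; -0.02 without E14.5 replicate 3), were the only listed regions.

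Several windows reached neighbouring genes. By the table's annotation 22 of the 62 regions were promoters of a gene other than the 9, and 9 were promoters of one of the 9. In the Meis3 window the most accessible region was the promoter of Slc8a2, and the lowest p belonged to a promoter region of Dhx34 from 16202684 to 16204899, 17.3 kb outside Meis3. The Dhx34 region had 10.8, 13.1 and 13.9 CPM at E14.5 and 21.4, 17.7 and 15.9 CPM at P0, without overlap, and a log2 fold change of 0.54 (SE 0.21; edgeR adjusted p = 0.177). An exon region of Dhx34, from 16210281 to 16211395, also did not overlap between the stages (log2 fold change 0.53, SE 0.24, edgeR adjusted p = 0.239).

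The region with the highest mean CPM of the 62 lay in the Pbx2 window, on chromosome 17 from 34603379 to 34604669, at the promoter of Agpat1. It had 95.3, 41.6 and 54.3 CPM at E14.5 and 41.5, 44.3 and 48.7 CPM at P0. The high value belonged to E14.5 replicate 1 alone, and the rank rested on it: at P0 the start regions of Tgif1, Pknox2 and Meis1 had higher means, 49.6, 48.7 and 47.0 CPM against 44.9 CPM. The log2 fold change was -0.50 (SE 0.26; edgeR adjusted p = 0.329). Without that library it was -0.09 (edgeR adjusted p = 0.906). In the Pbx4 window the lowest p was at the Lpar2 promoter from 69821361 to 69824048, with a log2 fold change of -0.35 (SE 0.21; edgeR adjusted p = 0.416; -0.18 without E14.5 replicate 3), and the most counts were at the Tssk6 promoter from 69901046 to 69903729, with -0.17 (SE 0.19; -0.09 without P0 replicate 2 and -0.31 without P0 replicate 3). In the Tgif1 window an intron region from 70793866 to 70796398, within Dlgap1 in RefSeq, had 13.5, 20.9 and 15.6 CPM at E14.5 and 25.7, 26.5 and 19.8 CPM at P0. P0 replicate 3 fell below E14.5 replicate 2 there, and the log2 fold change was 0.51 (SE 0.22; edgeR adjusted p = 0.213). The eighth region with all P0 libraries above was also in this window, from 70892196 to 70893760, with 11.0, 11.5 and 9.46 CPM at E14.5 and 14.06, 14.53 and 14.603 CPM at P0 (log2 fold change 0.43, SE 0.21, edgeR adjusted p = 0.299).

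Read by family, no region passed the test, and the signs of the fold changes differed most between the Meis and Pbx windows. In the Meis windows 19 of 21 regions had a log2 fold change above 0, with a median of 0.27, and in the Pbx windows 2 of 14 did, with a median of -0.17. In the Pknox windows 13 of 20 were above 0, 11 of 16 at Pknox2 and 2 of 4 at Pknox1, and in the Tgif1 window 5 of 7. The windows differed in what they held. Of the promoter regions in the Pbx windows, those of Pbx3 and Pbx4 were the only ones listed for a Pbx gene. Promoter regions in the Meis windows were also listed in part for other genes, which were Slc8a2, Dhx34, G630016G05Rik and ENSMUSG00000103562. The regions outside promoters in the Meis windows included an intron region of Slc8a2 and an exon region of Dhx34. Promoters made up 12 of the 14 regions in the Pbx windows and 8 of the 21 in the Meis windows, and a log2 fold change above 0 was found in 34% of all promoter regions and in 59.3% of all other regions. Without P0 replicate 2 these shares were 45.2% and 50.8%, so that the gap between them rested largely on 1 library. Among the promoter regions alone, 6 of 8 in the Meis windows and 1 of 12 in the Pbx windows were above 0. Outside promoters, 13 of 13 regions in the Meis windows were above 0, with a median of 0.32, and 1 of 2 in the Pbx windows, with a median of -0.09. In the same fit, with all libraries, the median of all regions outside promoters was 0.10. With total-count scaling 20 of 21 regions in the Meis windows and 3 of 14 in the Pbx windows were above 0, and so were 57.5% of all regions, 43.3% of all promoters and 64.3% of all other regions. Over the 6 fits that each left out a library, the Meis windows held from 16 of 21, with a median of 0.11, without P0 replicate 3, to 20 of 21, with a median of 0.36, without P0 replicate 2. The Pbx windows held from 0 of 14 to 3 of 14, and their median ran from -0.27 without E14.5 replicate 2 to -0.10 without E14.5 replicate 3. Without P0 replicate 3 the median was -0.22 in the Pbx windows, -0.21 over all promoter regions and 0.15 over all other regions. The same medians without P0 replicate 2 were -0.12, -0.03 and 0.009. The difference between the families was not tested, and neighbouring regions of one gene are not independent.

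Summed over all regions of a window, with the overlapping Tgif1 pair counted once, every gene had stages that overlapped. Meis1 had sums of 80.2, 89.0 and 89.1 CPM at E14.5 and 99.0, 81.0 and 118 CPM at P0. Meis2 had 127, 129 and 131 CPM at E14.5, a narrow range, and 156, 125 and 187 CPM at P0, where replicate 2 was below the E14.5 libraries. Pknox2 had 235, 270 and 272 CPM at E14.5 and 292, 264 and 296 CPM at P0. The log2 ratio of the stage means was 0.21 for Meis1, 0.27 for Meis2, 0.14 for Meis3, 0.13 for Pknox2 and 0.17 for Tgif1. It was -0.29 for Pbx2, -0.13 for Pbx3, -0.20 for Pbx4 and -0.29 for Pknox1, and at Pbx2 and Pknox1 the highest sums, 176 and 122 CPM, both came from E14.5 replicate 1. Without that library the ratios were -0.08 for Pbx2 and -0.09 for Pknox1. Without P0 replicate 3 they were 0.06 for Meis1, 0.12 for Meis2 and 0.02 for Tgif1, and without E14.5 replicate 3 they were -0.04 for Pbx3 and -0.09 for Pbx4. For Meis3 the lowest was 0.09, without E14.5 replicate 2, and for Pknox2 0.07, without E14.5 replicate 1. No ratio changed sign when 1 library was left out.

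**Figure D4:**
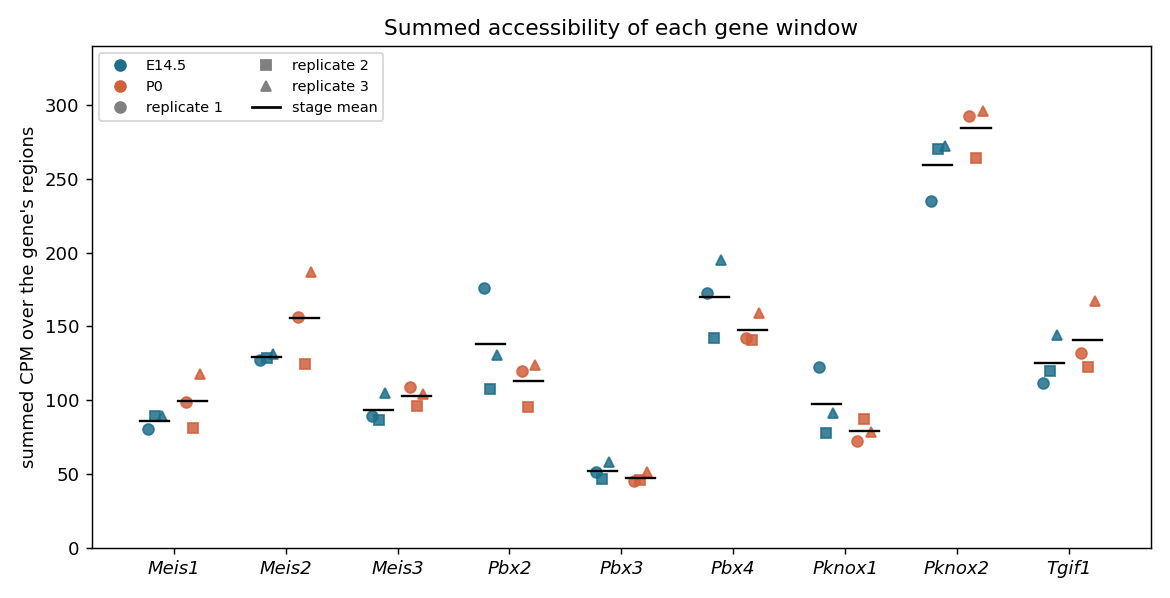
Summed CPM over all regions of each gene window (vertical axis) in the 6 libraries, with marker shape for the replicate number and a black line for the mean of the stage. The stages overlap for each of the 9 genes; the Meis2 sums at E14.5 lie between 127 and 131 CPM and those at P0 between 125 and 187 CPM.

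The deposited annotation of the 62 regions was set beside that of all regions. Promoters were 31 of them, against 32.4% of all regions, 35.5% lay in introns against 22.9%, and 6.45% were intergenic against 39.0%, a makeup that windows centred on genes favour. Their median length was 1646.5 bp, against 1599 bp. VISTA elements were listed at 3 regions, 4.84%, against 0.655% of all, and FANTOM enhancers at 7, 11.3%, against 9.65%. A Meis motif was listed in the table at 2 of the 62 regions, 3.23%, where 5.46% of all regions and 5.59% of regions of the same lengths had one. One of the 2 lay at the far end of Meis1 itself, from 18884789 to 18886194, and the other at the region from 70892196 to 70893760 in the Tgif1 window. Sall motifs were listed at 29.0% of the 62 regions, against 17.6% at the same lengths, and Maz motifs at 33.9%, against 22.3%. Six2 motifs were listed at 0 of the 62, against 2.69%. These shares were matched for length alone and not for class, and promoters were more frequent among the 62 than among all regions. The motif set and score threshold of the table are not given in the sources used here.

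Other genes of the same network were read from a list of 17 genes: the Iroquois genes and 1 further relative of the TALE class, the Hox genes of groups 9 to 11 in the A, C and D clusters, and Pbxip1, whose product binds Pbx proteins. Their windows of 50 kb held 21 regions at 15 of the 17 genes, and 0 of the 21 passed in edgeR, DESeq2 or limma-voom, against 4.73% of all regions in edgeR. In edgeR 2 of the 21 had an unadjusted p under 0.05, both lower at P0, against 18.7% of all regions. Their log2 fold changes had a median of -0.07, against 0.01 over all regions. At Irx2, an Iroquois homeobox gene, a promoter region on chromosome 13 from 72627638 to 72629609 had 34.5, 41.4 and 44.0 CPM at E14.5 and 32.3, 23.6 and 31.3 CPM at P0. Of the 21 regions this was the only one with all P0 libraries below those of E14.5, against 12.4% of all regions, and its log2 fold change was -0.46 (SE 0.20; edgeR adjusted p = 0.226). All P0 libraries lay above in 2 of the 21 regions, where 11.8% of all regions did. One was a promoter of a TALE relative, at a log2 fold change of 0.22 (SE 0.18). The other was an intergenic region near Hoxd10 and Hoxd11, on chromosome 2 from 74647291 to 74648116, at 0.45 (SE 0.29). In the Pbxip1 window the lowest p was at a promoter of Flad1, from 89411319 to 89412579 on chromosome 3, with a log2 fold change of -0.64 (SE 0.24; edgeR adjusted p = 0.158). It had 27.3, 17.6 and 19.7 CPM at E14.5 and 11.8, 11.2 and 18.0 CPM at P0, so that the stages overlapped. Over the alternatives its adjusted p ran from 0.0449, without P0 replicate 3, to 0.496. The 7 regions of the Hox list had log2 fold changes from -0.07 to 0.45, and their lowest edgeR adjusted p was 0.452. Of the Hox genes in the list, only Hoxd10 had a region listed as its promoter. The other promoters were listed for Hoxa3, Hoxa7, Hoxc5, Hoxc6 and ENSMUSG00000076010. All regions of the Pbxip1 window were promoters of other genes, namely Flad1, Gm15417, Pygo2 and Shc1.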

How the data were processed

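The authors deposited a table of regions with a raw count for every library, as whole numbers. Genome build mm10 is named in the submitters' processing notes; the aligner, peak caller, counting rule, duplicate removal and Tn5 shift are not given in the sources used here, and their effect was not assessed. The same deposited table held the authors' log2 fold change, mean log2 expression, p-value, adjusted p-value and score (t statistic, log odds) for P0 against E14.5, of which the fold change and adjusted p of 1 region are printed, with the authors' class of the 62 regions.

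Columns were matched to libraries by title, and 0 were left unmatched. Of 45489 rows, 1966 repeated a region and 43523 were kept. All were tested with edgeR 4.0.16 (R 4.3.3), TMM, filterByExpr, quasi-likelihood F test, stage as the only term, Benjamini-Hochberg over all regions, threshold 0.05. Standard errors are the absolute log2 fold change over the square root of F. Alternatives used DESeq2 1.42.0, limma-voom 3.58.1, other scalings, filters, thresholds and windows, a replicate term, and each library left out. The fit was tested on simulated data. Figures and summaries used Python 3.11.15 and pandas 2.3.3.

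Named regions were, for each gene, the one at its start, the one with most counts and the one with the lowest p, plus any past the threshold; those whose stages did not overlap, those with a VISTA element or a Meis motif, an inner Tgif1 promoter and, of the other genes, those at Irx2, Flad1 and Hoxd10 and a promoter of a relative were added after their values were seen. Of 8570 promoter regions with a RefSeq start, 88.4% lay within 1 kb of it. The genes and lists were chosen with earlier results of these data known. The libraries are biological replicates, per the labels.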

Additional observations from a re-analysis of the deposited data

How the results depend on the processing

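Of the 62 regions 0 passed in the fit with all libraries, and 0 passed with either other scaling, either other test, either other filter, a threshold of 0.01 or the narrower windows. Over all regions the calls were 2083 with RLE scaling, 1945 with total-count scaling, 2778 with DESeq2 and 1908 with limma-voom. They were 2059 without a filter and 2036 with at least 10 counts required in every library. With a threshold of 0.1, 1 region passed, higher at P0, and this was the Meis2 intron region. Across the 6 fits that each left out a library, from 0 to 1 regions passed and from 0 to 1 were higher at P0, with 1 in the fits that left out replicate 2 of E14.5 or replicate 2 of P0 and 0 in the other 4. At the other genes of the network from 0 to 1 regions passed across these 6 fits, and from 0 to 1 were lower at P0, with 1 without P0 replicate 3. The fits differed in calls over all regions, which were 2059 with all libraries, 1099, 2987 and 339 without E14.5 replicates 1, 2 and 3, and 474, 1653 and 2245 without P0 replicates 1, 2 and 3. The cause of these changes was not tested. The replicate block, which adds the replicate number to the fit, called 0 of the 62 regions and 0 of the other 21, and 1834 of all regions against 2059. No pairing by number was seen: deviations of same-numbered libraries from their stage means had correlations of 0.0666, -0.140 and 0.0767 across regions, and not every library correlated best with its own number. With 3 libraries per stage these values cannot decide whether same-numbered libraries shared a day or batch. The log2 ratios of the window sums kept their sign under total-count scaling and without each library, but 1 library moved each of them by more than 1.5 times, with the values given beside the sums. Each of the 62 regions had 24 or more counts per library, and over all regions replicates differed by a chi-square of 5.33 to 17.7 per degree of freedom, where counting noise alone gives about 1.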

Other observations

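The deposited table also lists, for many regions, predicted target genes with cell types, in columns whose headings begin with ea2. These lists were not used to link regions to the 9 genes, because they did not follow the chromosomes. Of 129 pairs of a region with 1 of the 9 genes, 0 lay on the chromosome of the gene: the 7 regions listed for Meis1 and the 26 listed for Pbx4 were all on other chromosomes. Over all genes with a RefSeq position, 1021 of 185413 pairs, or 0.551%, lay on the chromosome of the listed gene. The cause was not tested.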
